A study of Mus musculus with 12 samples.

Results

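Immediate early genes are genes that neurons switch on within minutes of synaptic activity without first making new protein. The 35 activity-regulated genes described here were picked from the count table by their gene symbols, and all 35 were found among its 14909 genes. They fall into 17 fast transcription factors (the Fos, Jun, Egr, Nr4a, Klf and Maf family members and Npas4), 12 other fast genes (Arc and a set of phosphatases, kinases and regulators) and 6 later effectors (Bdnf, Homer1, Nptx2, Vgf, Inhba and Pcsk1). Reads were counted in the frontal cortex of C57BL/6 mice that were either wild type (WT, 7 mice, numbered 1 to 7) or null for Upf3b (KO, 5 mice, numbered 1 to 4 and 6), and each library came from 1 mouse. The sources used here give no age, sex, kind of null allele or account of what the mice did before dissection, and no agent or stimulus is named for either group. UPF3B is a factor of nonsense-mediated mRNA decay, the pathway that degrades transcripts with a premature stop codon and many normal transcripts with similar features.

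In neurons, calcium entering through NMDA receptors and L-type channels reaches the nucleus through the MAP kinase and calmodulin kinase pathways, where CREB with its CRTC coactivators, SRF and MEF2 turn on the fast genes. The fast transcription factors then act with these on the later effectors, whose products act at synapses or are secreted. In the cortex the RNA of these genes is short-lived and its level follows what the animal experienced shortly before the tissue was taken, so large differences between animals of 1 group are common.

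Levels are given as CPM, which are counts scaled to a common library total after TMM correction, and differences as the log2 ratio of KO over WT with its standard error (SE). Library totals ran from 4684039 to 5425774 counts in WT and from 4990643 to 6617759 in KO, and the totals of 4 of the 5 KO libraries lay above every WT total. Depth and genotype are thus hard to separate in all comparisons between the groups. Upf3b itself was at 33.8 to 40.9 CPM in the WT libraries (median 38.3) and at 2.45, 1.71, 3.55, 2.31 and 3.79 CPM in KO 1, 2, 3, 4 and 6, so the groups did not overlap and the labels held (log2 ratio −3.78 ± 0.13 SE, adjusted p = 7.21e-11; exact two-sided permutation p = 0.00126, the smallest that 7 against 5 allows). WT 4 and KO 2 stood apart: across 14274 tested genes their deviations from their group means correlated at 0.518, the highest of all pairs of libraries, and WT 4 held the highest summed level of striatal marker genes (2010 CPM; WT 812 to 2010, KO 943 to 1630, with 1630 in KO 2). All 10 excitatory neuron markers were detected. Their summed level was 1670 to 2030 CPM in WT (median 2000) and 1450 to 2050 in KO (median 1730). WT 6 and WT 7 were the closest pair of libraries and differed by little more than count sampling noise (chi-square per degree of freedom 1.02, p = 0.0175). The other pairs within a group had values of 1.2 to 7.05. WT 6 and WT 7 did differ in 5 genes, Ttr among them with 9 against 56 counts, and were kept as 2 mice.

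All 35 genes were present at levels that could be tested. Compared per kilobase of exon, the most abundant in WT were Arc at 92.0 ± 5.89 CPM per kb (SD, n = 7), Egr1 at 88.7 ± 7.21, Vgf at 82.5 ± 3.30, Junb at 65.7 ± 4.88 and Nr4a1 at 65.3 ± 4.87. Arc and Egr1 did not differ beyond their spread, nor did Junb and Nr4a1. The lowest were Maff at 1.00 ± 0.312, Inhba at 3.36 ± 0.788, Dusp5 at 3.81 ± 0.405 and Klf4 at 4.12 ± 1.24 CPM per kb.

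Lower calls outnumbered higher calls among the activity genes. Of the 35 genes, 8 were lower in KO (Btg2, Cyr61, Npas4, Dusp1, Junb, Ier2, Vgf and Jun) and 2 were higher (Nr4a3 and Pcsk1), which makes 28.6% called at an adjusted p under 0.05 against 29.7% of all 14274 genes tested. The share called lower was 22.9% against 14.4% of all genes, and the share called higher was 5.71% against 15.3%. These shares depend on count density, described further on: the densest group of genes holds 5 of the 35, and 67.6% of that group were called lower. With offsets for count density 17.1% of the 35 were lower against 7.96% of all genes, and 2.86% were higher against 8.47%. For the fit with genotype alone, no share called was compared with genes of matched density. The log2 ratio was below 0 for 22 of the 35 genes, while it was above 0 for 8017 of the 14274 tested, and its median was −0.06 over the 35 genes and 0.03 over all genes. Only Btg2 and Cyr61 had a log2 ratio beyond 0.5 in size among the 10 that passed. In tissue RNA, fewer cells of a type and less RNA per cell cannot be told apart.

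**Figure D1:**
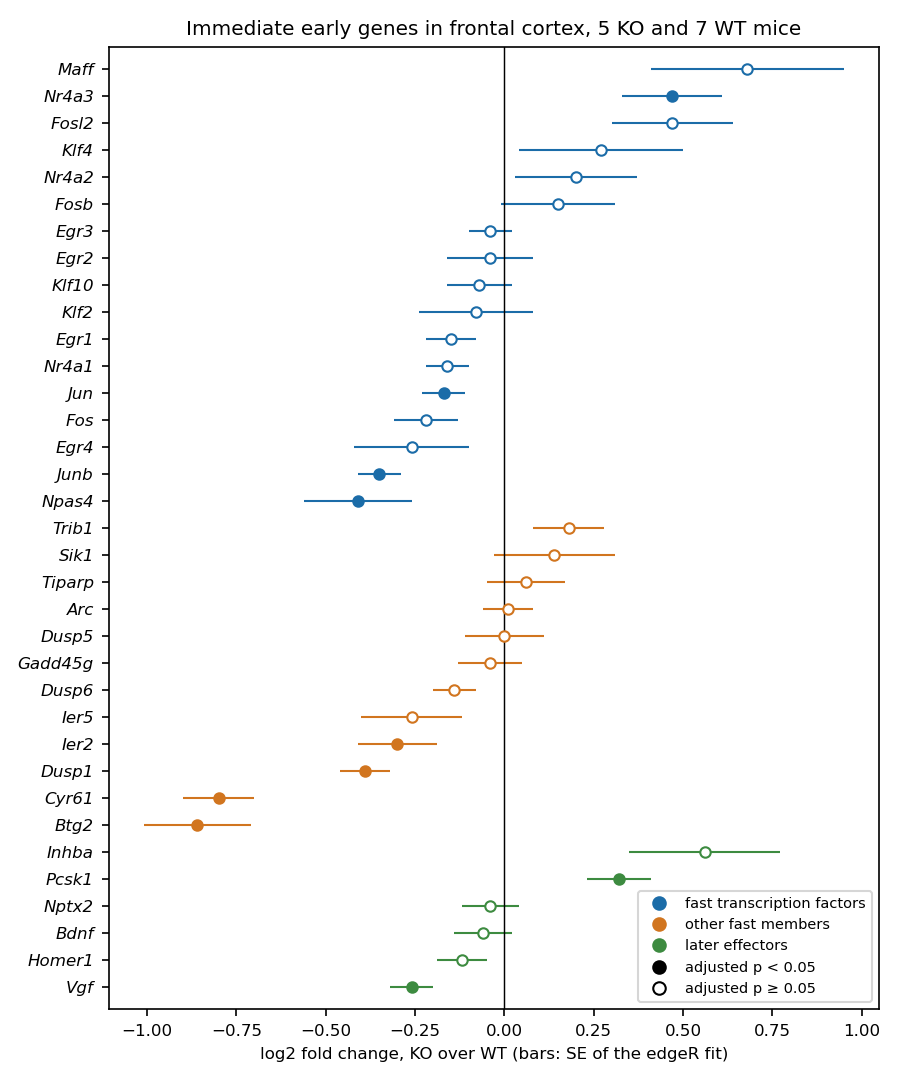
Log2 ratio of KO over WT for each of the 35 genes (x axis) with its standard error, ordered within the fast transcription factors, the other fast genes and the later effectors; colour marks the class, and filled points have an adjusted p under 0.05 while open points do not. Btg2 at −0.86 and Cyr61 at −0.80 lie farthest to the left, and the 2 genes called higher, Nr4a3 at 0.47 and Pcsk1 at 0.32, belong to different classes.

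In 4 genes every KO library lay below every WT library, Junb, Btg2, Cyr61 and Vgf, which is 11.4% of the 35 against 4.8% of all tested genes. In none did every KO library lie above WT, against 5.84% of all tested genes (10.6% in either direction). These shares use CPM without density offsets, and Junb and Vgf are in the densest group of genes, described further on. Neither share was compared with genes of matched density. Markers of some other cell types moved between the same groups. The summed level of 12 microglial markers was 689 to 861 CPM in WT and 621 to 645 in KO (7 of 12 lower), and that of 8 fibroblast and meningeal markers was 211 to 276 CPM in WT and 285 to 358 in KO (5 of 8 higher), without overlap in either, while the 12 endothelial markers overlapped at 338 to 390 and 364 to 430 CPM (5 of 12 higher). Among lists whose summed levels overlapped, 5 of 10 astrocyte and 4 of 10 oligodendrocyte markers were lower and none was higher. Of 10 inhibitory neuron markers 4 were lower and 1, Adarb2, was higher (log2 ratio 0.69 ± 0.09). Of 7 oligodendrocyte precursor markers 4 were higher and 1, Bcas1, was lower (−0.24 ± 0.04). Of 10 excitatory neuron markers 2 were lower and none was higher. Pdgfra, called higher with means of 94.9 CPM in WT and 115 in KO, is on both the fibroblast and the oligodendrocyte precursor list and counts in each. With offsets for count density, described further on, 5 of 12 microglial, 2 of 10 astrocyte, 0 of 10 oligodendrocyte and 1 of 10 inhibitory neuron markers were lower. Higher were 1 of 8 fibroblast and meningeal, 0 of 12 endothelial and 3 of 7 oligodendrocyte precursor markers. Adarb2 was still called higher (0.54, adjusted p = 4.92e-04) and Bcas1 still lower (−0.12, adjusted p = 0.0142). No excitatory neuron marker was called in that fit. No marker in the table was at 0 in all libraries, and the part these cells play in the levels of the activity genes was not tested.

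Cyr61, Btg2 and Junb carried the lower levels with the smallest p-values, and the 200 bases before their RefSeq start sites are shown for the CREB sites known from many promoters of this program. Capitals mark the CREB half-site TGACG or the full palindromic CRE TGACGTCA. In Cyr61 the half-site lies on the other strand and reads as its reverse complement. The sequences are from RefSeq, GRCm38.p6, the same build as mm10, written 5′ to 3′ on the gene's strand, which is the minus strand for all 3, and no annotated exon lies in them.
Cyr61, chr3:145649986-145650185: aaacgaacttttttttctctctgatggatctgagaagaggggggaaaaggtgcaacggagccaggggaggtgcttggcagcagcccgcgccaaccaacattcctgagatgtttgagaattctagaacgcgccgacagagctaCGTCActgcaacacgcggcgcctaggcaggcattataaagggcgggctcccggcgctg
Btg2, chr1:134079156-134079355: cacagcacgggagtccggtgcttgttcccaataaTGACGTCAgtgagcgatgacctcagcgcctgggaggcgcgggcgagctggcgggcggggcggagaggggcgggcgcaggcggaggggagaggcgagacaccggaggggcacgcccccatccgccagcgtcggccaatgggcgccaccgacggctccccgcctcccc
Junb, chr8:84978749-84978948: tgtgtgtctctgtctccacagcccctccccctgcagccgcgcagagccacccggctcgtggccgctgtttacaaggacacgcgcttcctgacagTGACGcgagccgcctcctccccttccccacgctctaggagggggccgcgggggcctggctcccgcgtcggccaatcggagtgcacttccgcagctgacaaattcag

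The Btg2 stretch holds a full CRE 166 to 159 bases before the start, and those of Cyr61 and Junb hold 1 half-site each, 58 to 54 and 106 to 102 bases before it. Over windows from 250 bases before to 50 after the start, which were available for 26 of the 35 genes (Cyr61 under its newer symbol Ccn1), the half-site TGACG on either strand was in 19 (73.1%), against 23.0% of 27025 genes. The full CRE, which counts as half-sites too, was in 4 of the 26 (15.4%; Maff, Dusp1, Btg2 and Pcsk1) against 2.03% of all genes. An EGR site, GCGNGGGCG, was in 8 (30.8%) against 6.27%, the SRF-binding CArG box in 2 (7.69%; Egr2 and Dusp5) against 1.81%, and the AP-1 site TGANTCA in 1 (3.85%; Bdnf) against 8.97%. Genes called in both directions held the half-site: 5 of the 6 lower and both higher genes with a window. A match is a description of letters and not a bound site.

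Among the fast transcription factors, 3 of 17 were lower (17.6%, against 14.4% of all tested genes) and 1 was higher (5.88%, against 15.3%), with a median log2 ratio of −0.07. The AP-1 proteins are dimers of a Fos and a Jun family member. Junb was at 105 to 134 CPM in WT (median 118) and at 98.8, 84.0, 92.7, 91.4 and 101 CPM in KO 1, 2, 3, 4 and 6. All 5 KO libraries lay below the lowest WT library, and the log2 ratio was −0.35 ± 0.06 (adjusted p = 9.20e-04). Jun, its close relative, was at 74.0 to 94.4 CPM in WT (median 80.1) and at 70.4, 71.6, 78.8, 66.5 and 73.1 CPM in KO. All KO libraries but KO 3 were below the WT range, and KO 3 was inside it, for a log2 ratio of −0.17 ± 0.06 (adjusted p = 0.0364), a call kept in 5 of 12 fits that each left out 1 library.

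Fos, the marker most used for recent neuronal activity, was at 72.5 to 98.5 CPM in WT (median 78.5) and at 61.8, 80.7, 64.0, 69.2 and 77.4 CPM in KO. The KO libraries KO 1, 3 and 4 lay below the WT range and the other 2 inside it, and the log2 ratio of −0.22 ± 0.09 did not pass (adjusted p = 0.0832). It did without KO 2 and WT 4 (−0.23 ± 0.08, adjusted p = 0.0317). The 2 remaining Fos family members pointed the other way without passing: Fosl2 averaged 74.4 ± 23.0 CPM (SD, n = 7) in WT and 103 ± 17.1 (n = 5) in KO (log2 ratio 0.47 ± 0.17, adjusted p = 0.0503), and Fosb 43.2 ± 12.3 and 47.9 ± 7.44 CPM (0.15 ± 0.16, adjusted p = 0.5). Without KO 2 and WT 4 Fosl2 passed at 0.54 ± 0.13 (adjusted p = 0.0061). Gene-level counts do not separate full-length FosB from its truncated ΔFosB form. Maff, a small Maf protein without an activation domain, had few counts, with 1.07 to 3.57 CPM in WT (median 2.61) and 2.25, 3.73, 4.29, 3.54 and 6.92 CPM in KO. KO 2, 3 and 6 exceeded the WT range, yet the log2 ratio of 0.68 ± 0.27 did not pass (adjusted p = 0.0734).

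The EGR zinc finger factors did not pass in any of 4 cases. Egr1, the most abundant of them, averaged 269 ± 21.9 CPM in WT and 243 ± 25.3 in KO (log2 ratio −0.15 ± 0.07, adjusted p = 0.116). Egr2 averaged 36.4 ± 6.86 and 35.3 ± 3.60 CPM, Egr3 197 ± 11 and 192 ± 21.1, and Egr4 79.1 ± 13.9 and 66.2 ± 18.1. Their log2 ratios lay at −0.04 for Egr2 and Egr3 and at −0.26 ± 0.16 for Egr4.

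The orphan nuclear receptors of the NR4A family are induced by the same calcium signals, and here only Nr4a3 passed. Nr4a3 was at 51.1 to 104 CPM in WT (median 70.4) and at 91.2, 105, 89.2, 95.1 and 101 CPM in KO. The KO libraries were tightly grouped, and 4 of them overlapped WT only through WT 4. The log2 ratio was 0.47 ± 0.14 (adjusted p = 0.0222), or 0.55 ± 0.10 (adjusted p = 9.59e-04) without KO 2 and WT 4. Nr4a1 averaged 162 ± 12.1 CPM in WT and 145 ± 12.9 in KO (log2 ratio −0.16 ± 0.06, adjusted p = 0.0699).

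Nr4a2 had the largest spread of all 35 genes among WT mice and the smallest among KO mice. It was at 25.5 to 74.8 CPM in WT (median 42.0) and at 50.1, 49.2, 50.7, 50.5 and 55.7 CPM in KO. WT 4 was the highest WT library and WT 2 the lowest, and every KO value lay inside that range. The log2 ratio of 0.20 ± 0.17 did not pass (adjusted p = 0.417), but it did at 0.38 ± 0.11 (adjusted p = 0.0161) when KO 2 and WT 4 were left out.

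Npas4, a factor induced almost only by neuronal activity, was at 47.1 to 90.3 CPM in WT (median 58.9) and at 41.5, 59.0, 49.0, 40.6 and 48.9 CPM in KO. KO 1 and KO 4 lay below the WT range and the other 3 inside it. The log2 ratio of −0.41 ± 0.15 was near the threshold (adjusted p = 0.0485), and 4 of 12 fits that each left out 1 library kept the call. The zinc finger factors Klf2, Klf4 and Klf10 did not pass. Klf4 was at 7.15 to 16.6 CPM in WT (median 12.4) and at 13.1, 15.4, 10.2, 12 and 24.5 CPM in KO, where KO 6 alone exceeded WT (log2 ratio 0.27 ± 0.23, adjusted p = 0.405). Klf2 averaged 16.8 ± 3.24 CPM in WT and 16.1 ± 3.95 in KO, and Klf10 75.9 ± 8.61 and 72.4 ± 8.33.

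**Figure D2:**
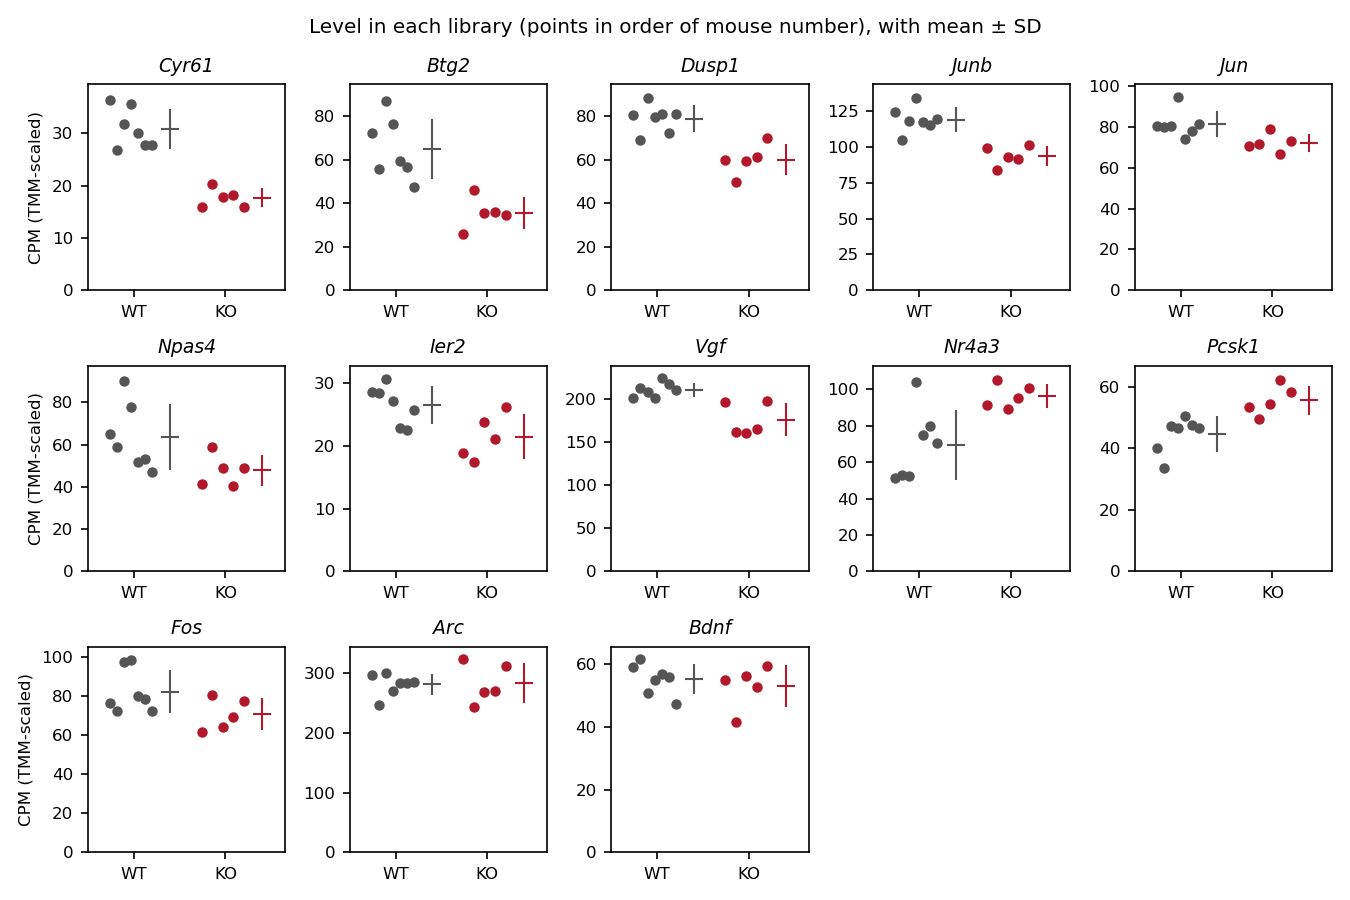
Level in CPM (y axis, starting at 0) of the 10 genes that passed and of Fos, Arc and Bdnf, 1 point per library in order of mouse number, with WT and KO side by side and the group mean ± SD beside the points. Cyr61, Btg2, Junb and Vgf show no overlap between groups, while Nr4a3 shows a WT range of 51.1 to 104 CPM and a KO range of 89.2 to 105.

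Among the 12 other fast genes, 4 were lower (33.3%, against 14.4% of all tested genes), none was higher, and the median log2 ratio was −0.09. Cyr61, which encodes a secreted protein of the extracellular matrix (chr3:145646971-145649985), was at 26.8 to 36.4 CPM in WT (median 30.0) and at 16, 20.4, 17.9, 18.2 and 16 CPM in KO. Every KO library lay below every WT library. KO averaged 57.3% of WT, with a log2 ratio of −0.80 ± 0.10 (adjusted p = 1.01e-04), the smallest p of the 35 genes.

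Btg2, an antiproliferative protein that recruits the CCR4-NOT deadenylase to mRNA (chr1:134074865-134079155), was at 47.5 to 86.9 CPM in WT (median 59.3) and at 25.8, 46.2, 35.3, 36.0 and 34.6 CPM in KO. The groups did not overlap, although KO 2 at 46.2 and WT 7 at 47.5 were close. KO averaged 54.7% of WT (log2 ratio −0.86 ± 0.15, adjusted p = 0.0011), which rose in size to −0.94 ± 0.14 without KO 2 and WT 4.

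Dusp1, a nuclear phosphatase that switches off MAP kinases, was at 69.1 to 88.0 CPM in WT (median 80.5) and at 59.7, 49.8, 59.3, 61.1 and 70.0 CPM in KO. Only KO 6 reached the WT range (log2 ratio −0.39 ± 0.07, adjusted p = 0.00193). The ERK phosphatases did not pass: Dusp6 averaged 107 ± 5.63 CPM in WT and 97.4 ± 9.07 in KO (log2 ratio −0.14 ± 0.06, adjusted p = 0.091), and Dusp5 9.43 ± 1.00 and 9.47 ± 0.707. Ier2, a nuclear immediate early response protein, was at 22.6 to 30.6 CPM in WT (median 27.1) and at 18.8, 17.4, 23.8, 21.1 and 26.2 CPM in KO. KO 3 and KO 6 were inside the WT range, and the call (log2 ratio −0.30 ± 0.11, adjusted p = 0.0423) was kept in 5 of 12 fits leaving out 1 library. Ier5 averaged 126 ± 17.1 and 106 ± 27.4 CPM without passing (adjusted p = 0.188).

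Arc, whose protein acts in the removal of AMPA receptors from synapses, was at 247 to 300 CPM in WT (median 284) and at 324, 243, 268, 270 and 311 CPM in KO. KO 1 and KO 6 were above the WT range, KO 2 was below it, and the means were 281 ± 18.0 and 283 ± 33.2 CPM (log2 ratio 0.01 ± 0.07, adjusted p = 0.928). None of Gadd45g, Sik1, Tiparp and Trib1 passed. Sik1, a kinase that phosphorylates the CRTC coactivators, averaged 42.0 ± 11.5 CPM in WT and 46.3 ± 10.3 in KO. Tiparp, an ADP-ribosyltransferase, averaged 49.1 ± 8.72 and 51.2 ± 6.61, the pseudokinase gene Trib1 47.6 ± 5.22 and 53.9 ± 8.74, and Gadd45g, of the growth arrest and DNA damage family, 24.2 ± 2.62 and 23.6 ± 3.10 CPM. Exons of Dusp5, Tiparp and Bdnf overlap a gene on the opposite strand, and the strand setting of the counting is unknown, so their counts may include reads of those genes.

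The 6 later effectors had 1 gene lower and 1 higher, 16.7% each against 14.4% and 15.3% of all tested genes, with a median log2 ratio of −0.05. Vgf, the precursor of several neuropeptides, was at 201 to 224 CPM in WT (median 210) and at 196, 162, 160, 165 and 197 CPM in KO. The groups did not overlap, but KO 1 and KO 6 lay just under the WT range and the other 3 well below it (log2 ratio −0.26 ± 0.06, adjusted p = 0.00411). Pcsk1, the convertase that cuts prohormones such as pro-VGF, was at 33.4 to 50.5 CPM in WT (median 46.6) and at 53.2, 49.6, 54.3, 62.2 and 58.1 CPM in KO. All KO libraries but KO 2 exceeded the WT range, and the log2 ratio was 0.32 ± 0.09 (adjusted p = 0.0135).

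Bdnf, the neurotrophin gene, was at 47.3 to 61.5 CPM in WT (median 55.9) and at 54.8, 41.7, 56.3, 52.6 and 59.4 CPM in KO. Only KO 2 left the WT range, downward, and the log2 ratio was −0.06 ± 0.08 (adjusted p = 0.607). Homer1, a scaffold of the postsynaptic density, averaged 207 ± 17.1 CPM in WT and 190 ± 16.8 in KO (adjusted p = 0.167). Gene-level counts separate neither the short activity-induced Homer1a from the long forms nor the transcripts of the several Bdnf promoters. Nptx2, a secreted pentraxin that gathers AMPA receptors, averaged 78.5 ± 3.35 and 76.4 ± 11 CPM. Inhba, the subunit of activin A, was at 3.40 to 6.67 CPM in WT (median 5.13) and at 4.50, 5.76, 9.02, 10 and 8.23 CPM in KO. KO 3, 4 and 6 were above the WT range (log2 ratio 0.56 ± 0.21, adjusted p = 0.0581), and without KO 2 and WT 4 the value was 0.71 ± 0.21 (adjusted p = 0.0171).

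Fast transcription factors and later effectors thus had like medians, −0.07 and −0.05, and the range of log2 ratios was −0.41 to 0.68 in the first class and −0.26 to 0.56 in the second. Without KO 2 and WT 4 both medians were at 0.00 to 2 decimals, the other fast genes were at −0.12, and 5 of the 35 genes were called higher and 8 lower (background 15.2% and 15.4%). The genes added as higher were Fosl2, Nr4a2 and Inhba, Fos was added as lower, and Ier2 was lost. Leaving out WT 4 alone gave 6 genes called higher.

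Count density was a measured property that moved with these ratios. Genes were ranked by counts per exonic base and split into 10 equal groups. In the densest group, which holds Junb, Egr1, Nr4a1, Arc and Vgf, 67.6% of all genes were called lower and the median log2 ratio was −0.18. In the group below it, which holds Fos, Egr3, Dusp1, Dusp6 and Ier5, 30.8% were called lower with a median of −0.09. A fit with an offset per gene and library that takes out this trend called 6 of the 35 genes lower, all of them called lower before (background 7.96%): Cyr61 at −0.89 ± 0.09, Btg2 at −0.90 ± 0.15, Dusp1 at −0.33 ± 0.07, Ier2 at −0.37 ± 0.11, Junb at −0.19 ± 0.06 and Npas4 at −0.47 ± 0.15. Vgf fell out at −0.06 ± 0.04 (adjusted p = 0.326), as did Jun at −0.17 ± 0.06 (adjusted p = 0.0548).

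In the same fit no gene called higher before stayed so, with Nr4a3 at 0.40 ± 0.14 (adjusted p = 0.0666) and Pcsk1 at 0.21 ± 0.09 (adjusted p = 0.115), while Arc was called higher at 0.24 ± 0.04 (adjusted p = 0.0027), the only such gene (background 8.47%). With the library total as a covariate, Cyr61 alone remained called, at −0.97 ± 0.17 (adjusted p = 0.02; background 0.0771% lower and 0.588% higher), and Btg2 was at −1.23 ± 0.26 (adjusted p = 0.0551).

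**Figure D3:**
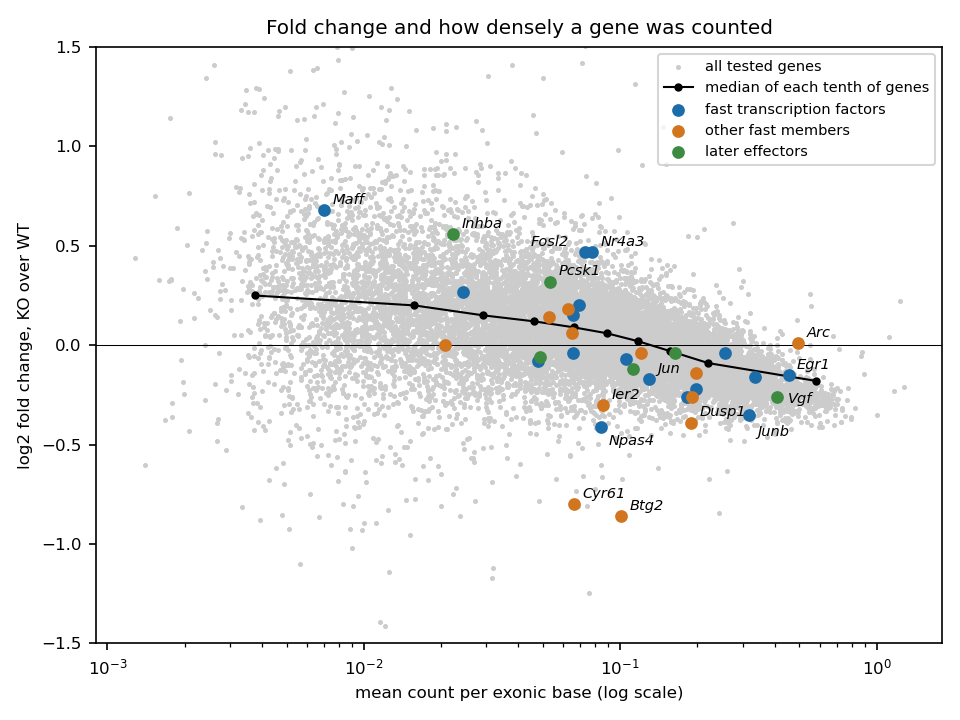
Log2 ratio of KO over WT (y axis) against mean counts per exonic base (x axis, log scale) for all tested genes in grey and the 35 activity genes in colour by class, with a line joining the medians of 10 equal groups of genes; the y axis ends at 1.5 in both directions, so a few genes lie outside it. The line falls from 0.25 to −0.18, Cyr61 and Btg2 lie far below it, and Arc lies above it at the dense end.

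The mouse-to-mouse spread was compared as the SD of log2 (CPM + 0.5) within each group. Activity genes varied more than other genes of similar level: 31 of 35 in WT and 33 of 35 in KO had an SD above the median of similarly expressed genes, where 7134 of all 14274 genes do so in either group. The median SD was 0.173 in WT and 0.174 in KO for the 35 genes, against 0.128 and 0.119 for all tested genes. By class the fast transcription factors had a median SD of 0.285 in WT and 0.167 in KO, the other fast genes 0.160 and 0.177, and the later effectors 0.125 and 0.174. The SD was larger in WT than in KO for 9 of the 17 fast transcription factors (52.9%), against 54.7% of all tested genes.

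The largest SDs among WT mice were those of Nr4a2 (0.460), Klf4 (0.454) and Maff (0.451), and among KO mice those of Maff (0.515), Klf4 (0.469) and Inhba (0.449). Nr4a2 had an SD of 0.069 in KO, and Nr4a3 went from 0.380 in WT to 0.096 in KO. Vgf and Nptx2 had the opposite pattern, with 0.057 and 0.061 in WT against 0.151 and 0.215 in KO. A fit of absolute deviations across all genes in limma called no difference in spread among the 35 (smallest adjusted p = 0.485) and 1 gene of 14274 (0.00701%). At an unadjusted p under 0.05, 3 of the 35 passed (Vgf, Nptx2 and Nr4a3) against 7.92% of all genes. Power was low: in simulated data with these group sizes, a 5-fold ratio of SDs was called in 46.5% of 200 changed genes out of 14274. Without KO 2 and WT 4 the SD of Nr4a2 was 0.316 and 0.069, and the median of the fast transcription factors was 0.265 and 0.144.

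**Figure D4:**
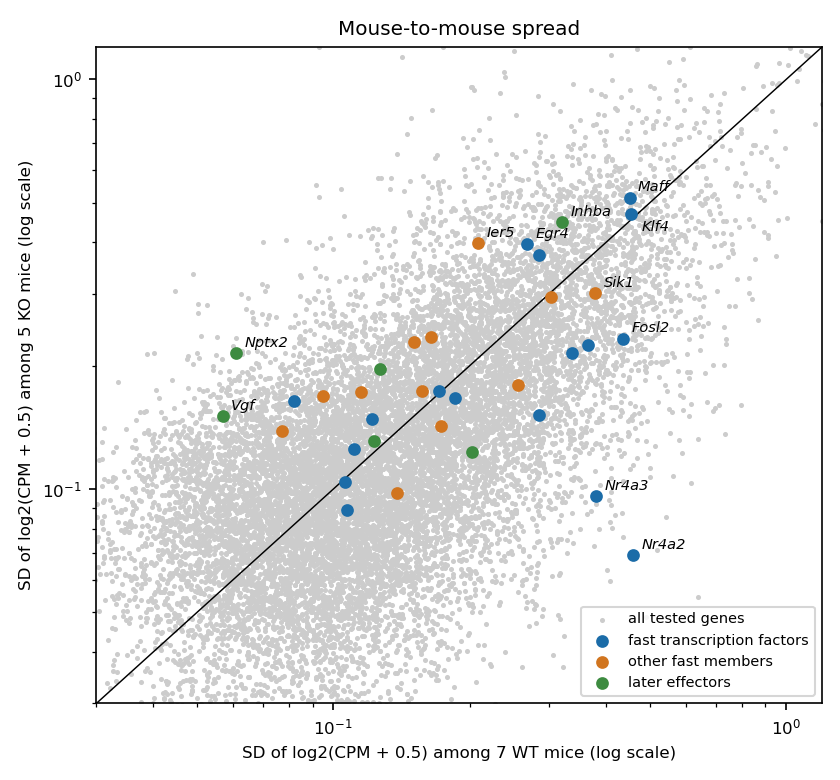
SD of log2 (CPM + 0.5) among KO mice (y axis) against that among WT mice (x axis) for all tested genes in grey and the 35 genes in colour by class, on log scales, with the line of equal SD; a few genes lie outside the axes. Nr4a2 and Nr4a3 lie far below the line, at 0.069 and 0.096 in KO against 0.460 and 0.380 in WT, and Nptx2 and Vgf lie above it.

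Particular mice were high or low for many of the genes at once. WT 4 was the highest WT library for 8 of 17 fast transcription factors (47.1%), among them Fos, Fosb, Fosl2, Jun, Junb and all 3 Nr4a genes, for 2 of the 12 other fast genes and for no later effector, where it was the highest for 23.4% of all tested genes. KO 6 was the highest KO library for 20 of the 35 genes (57.1%), where it was so for 17.8% of all genes. KO 2 was the lowest KO library for 16 of the 35 (45.7%), with 4 of 6 later effectors among them, where it was so for 29.4% of all genes. KO 2 (1450 CPM) and WT 4 (1670 CPM) were also the lowest libraries of their groups for the summed excitatory neuron markers, whose part in these levels was not tested. As the median log2 ratio to the WT mean, the fast transcription factors ran from −0.22 in WT 1 to 0.25 in WT 4, and from −0.10 in KO 1 to 0.13 in KO 6. The later effectors ran from −0.10 in WT 1 to 0.09 in WT 3 and from −0.35 in KO 2 to 0.12 in KO 6. A range over single mice is usually wider than a difference between groups, so these ranges do not measure the difference between genotypes. The genes of 1 library share its animal and its depth and are not independent of each other.

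**Figure D5:**
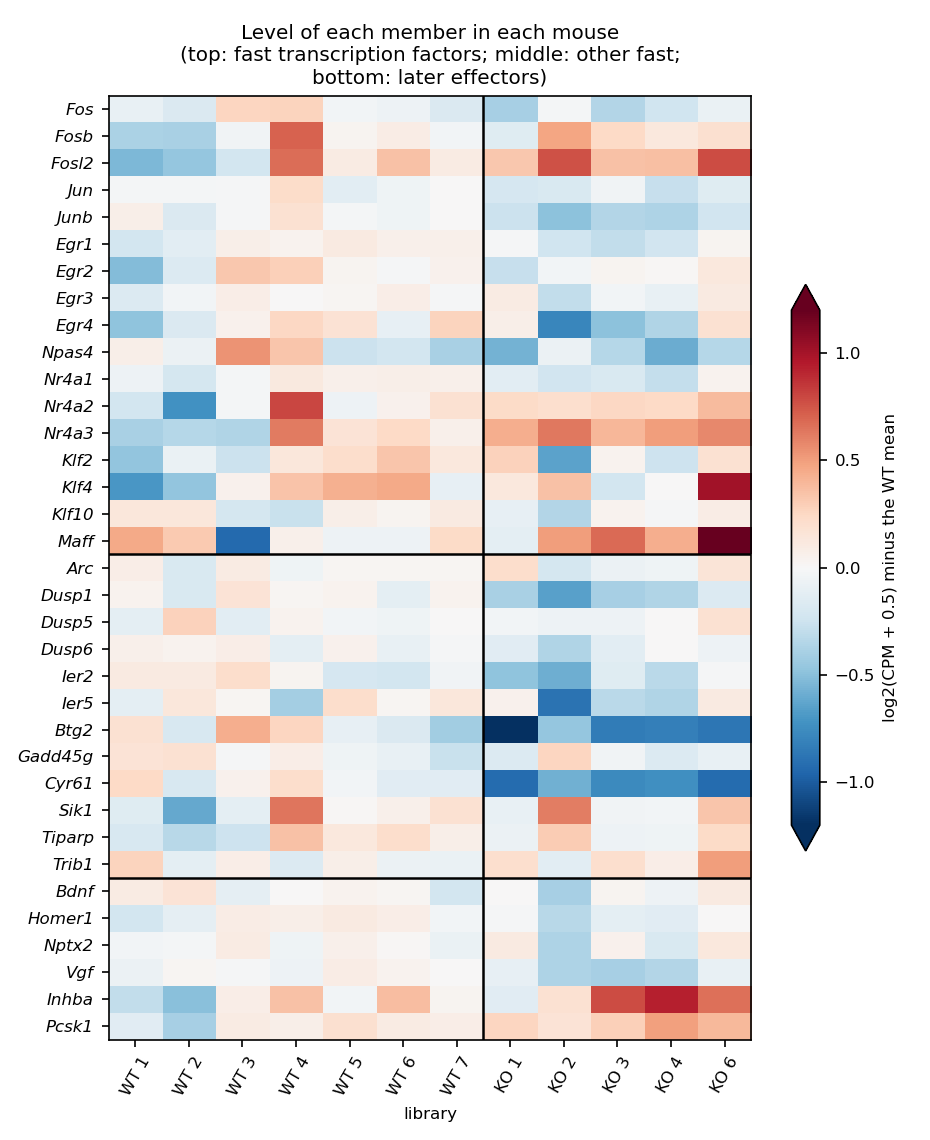
Log2 ratio of each library to the WT mean for the 35 genes (rows, by class) in the 7 WT and 5 KO libraries (columns), on the log2 (CPM + 0.5) scale, with blue for lower and red for higher and the darkest shades for values beyond 1.2 in size. The WT 4 column is red for the Fosb, Fosl2, Nr4a2 and Nr4a3 rows, and the Cyr61 and Btg2 rows are blue in all 5 KO columns.

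Of 46 further activity-regulated genes tested, 9 were higher and 10 lower, a share of 19.6% and 21.7% against 15.3% and 14.4% of all tested genes, with a median log2 ratio of 0.00 to 2 decimals. Higher were Per1, the clock gene induced through CRE sites (148 ± 11.7 CPM in WT and 190 ± 13.7 in KO, log2 ratio 0.36 ± 0.06, adjusted p = 8.14e-04), Acan, the core proteoglycan of perineuronal nets (0.75 ± 0.14), the ERK pathway inhibitor Spry4 (0.25 ± 0.06) and Ifrd1 (0.22 ± 0.06). Lower were the mTORC1 activator Rheb (−0.25 ± 0.05), the G-protein signalling regulator Rgs4 (−0.26 ± 0.06), Klf6 (−0.18 ± 0.05) and the neurite growth gene Nrn1 (−0.30 ± 0.09). With density offsets 3 were called higher and 5 lower, 6.52% and 10.9% against 8.47% and 7.96% of all genes. Of the genes named here, Per1 (0.43, adjusted p = 4.20e-04), Acan (0.51, adjusted p = 0.0313), Rheb (−0.16, adjusted p = 0.0164) and Klf6 (−0.20, adjusted p = 0.011) were still called. Spry4 (0.12, adjusted p = 0.287), Ifrd1 (0.16, adjusted p = 0.106), Rgs4 (−0.02, adjusted p = 0.725) and Nrn1 (−0.08, adjusted p = 0.422) were not.

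Of 56 genes of the upstream signalling pathway tested (receptors, channels, kinases, calmodulin and calcineurin subunits, and the transcription factors that act first), 7 were higher and 19 lower, a share of 12.5% and 33.9% against 15.3% and 14.4% of all tested genes, with a median of −0.03. Higher were the CREB coactivators Crtc2 (33.2 ± 1.96 CPM in WT and 45.5 ± 2.99 in KO, log2 ratio 0.45 ± 0.06, adjusted p = 1.67e-04) and Crtc3 (0.28 ± 0.07), the L-type channel gene Cacna1d (0.27 ± 0.07) and the SRF partner Elk3 (0.28 ± 0.08). The lower genes with the smallest p were Calm2 (−0.39 ± 0.06), which encodes calmodulin, Map2k1 (−0.25 ± 0.04), the kinase upstream of ERK, and the calcineurin subunits Ppp3r1 (−0.35 ± 0.07) and Ppp3ca (−0.34 ± 0.07). With density offsets 6 were called higher and 4 lower, 10.7% and 7.14% against 8.47% and 7.96% of all genes. Crtc2 was still called at 0.38 (adjusted p = 5.16e-04), and Calm2, Ppp3r1 and Ppp3ca were still called at the smaller sizes of −0.10 (adjusted p = 0.0245), −0.09 (adjusted p = 0.0411) and −0.10 (adjusted p = 0.0434). Map2k1 (−0.03, adjusted p = 0.563), Crtc3 (0.15, adjusted p = 0.0918), Cacna1d (0.17, adjusted p = 0.108) and Elk3 (0.11, adjusted p = 0.387) were not called. With the library total as a covariate none of the 56 or of the 46 was called.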

How the data were processed

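The authors deposited raw read counts, whole numbers for each gene in each library, without normalization. Per the submitters' processing notes STAR was used with mm10; for the counter and its strand setting, nothing is given in the sources used here. There were 23 symbols turned into dates by a spreadsheet, which were renamed from their accessions. Groups and mouse numbers came from the sample titles. Differences came from edgeR 4.0.16 (R 4.3.3; TMM factors, filterByExpr, quasi-likelihood test with genotype alone in the model over all 12 libraries, Benjamini-Hochberg over 14274 genes at 0.05, two-sided; common biological coefficient of variation 8.11%). Spread was tested with limma 3.58.1 on absolute deviations of log2 (CPM + 0.5) from the group mean. Simulated log2 changes of 0.25, 0.5 and 1 were called in 24%, 90% and 98% of 50 changed genes each, out of 14274. How these rates depend on the variability of a gene was not tested. Among the activity genes the coefficient of variation per gene ran from 6.0% (Jun) to 26.2% (Klf4). It was 24.2% for Maff, 20.7% for Fosl2 and 20.6% for Inhba. The rates need not hold for such variable genes, whose lack of a call does not exclude a change of 0.5. Exonic lengths came from GENCODE transcripts linked to the RefSeq transcripts of each gene, or matched by gene symbol for 123 genes. Alternatives used DESeq2 1.42.0 and limma-voom among others.

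The 35 genes, the classes and the other lists were chosen with earlier results of these data known. Genes were named by rule: members that passed, Fos, Arc, Npas4 and Bdnf, the 3 with the largest SD in each group, and up to 4 per direction of each further list by smallest p; remaining members have group means or ratios. P-values of the edgeR fits set a difference between the groups against the variation between these mice.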

Additional observations from a re-analysis of the deposited data

Results flagged for a closer look

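Within a group, 6 of 70 sets of values (35 genes in 2 groups) had a library far from the others, where chance flags about 1 in 20 sets. In WT 4, Fosb was at 68.7 CPM while the other WT libraries were at 31.9 to 44.7, and Jun was at 94.4 CPM while the others were at 74.0 to 81.1. In WT 2, Dusp5 was at 11.5 CPM while the others were at 8.56 to 9.70. In KO 6, Nr4a2 was at 55.7 CPM while the other KO libraries were at 49.2 to 50.7, and Dusp5 was at 10.7 CPM while the others were at 9.02 to 9.38. In KO 2, Gadd45g was at 28.9 CPM while the others were at 21.5 to 23.4. None of these 5 genes other than Jun was called between the groups. WT 4 and KO 2 were the 2 libraries that stood apart across all genes.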

How the results depend on the processing

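Calls of 5 genes as lower (Btg2, Cyr61, Dusp1, Junb and Vgf) and of 2 as higher (Nr4a3 and Pcsk1) were kept in all 12 fits that left out 1 library each, and Upf3b was lower under each setting tried. Leaving out 1 library gave 2 to 6 of the 35 genes called higher (6 without WT 4, 4 without WT 6 or KO 1) and 5 to 8 lower (5 without WT 1, WT 3, KO 1 or KO 4), 5 to 11 higher and 4 to 12 lower of the other activity-regulated genes, and 3 to 9 higher of the upstream genes. Without KO 2 and WT 4, 5 of the 35 were called higher. Density offsets gave 1205 genes higher and 1132 lower over the whole table, where 2183 and 2050 were called before, with 1 of the 35 higher, 3 higher and 5 lower of the other activity-regulated genes and 4 lower of the upstream genes. The library total as a covariate gave 84 genes higher and 11 lower, with 0 higher and 1 lower of the 35 and 0 in both directions of both further lists. That total is higher in 4 of 5 KO libraries than in any WT library. Depth and genotype are therefore hard to separate, in this fit and in the fits with genotype alone, and the cause of the differences was not tested.

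Mouse numbers shared by both groups did not pair the samples: same-numbered mice deviated together at correlations of 0.142, −0.376, −0.0474, −0.0758 and 0.0381, and no KO library correlated best with its own number. For the numbers of genes called higher in KO and genes called lower in KO, the replicate block over the 5 shared numbers gave 1133 and 1180, with 2 higher and 6 lower of the 35 (Jun and Ier2 were not called), 2 higher and 3 lower of the other activity-regulated genes, and 2 higher and 12 lower of the upstream genes. The same 10 libraries without a block gave 1586 and 1539 genes, 2 and 8 of the 35, 3 lower of the other activity-regulated genes and 4 higher of the upstream genes. WT 6 and WT 7 summed as 1 library gave 2 and 8 of the 35. No setting called a difference in spread. Depth limits Maff and Inhba, with 5 to 42 and 18 to 65 counts per library.

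Ratios that turned sign were those of genes that did not pass. With density offsets Egr1 was at 0.07, Egr3 0.07, Nr4a1 0.01, Dusp5 −0.16 and Tiparp −0.03. With the covariate Fosb was at −0.34, Egr1 0.02, Egr3 0.09, Nr4a2 −0.04, Klf2 0.18, Dusp5 −0.09, Ier5 0.16, Sik1 −0.16, Tiparp −0.06, Nptx2 0.11 and Inhba −0.07. Without KO 2 and WT 4 the log2 fold change of Egr2 was 0.00485, that of Egr3 0.01, Klf2 0.05 and Nptx2 0.01. Arc was at −0.01 with DESeq2 size factors, the DESeq2 Wald test and no filter. The log2 fold change of Dusp5, 0.00 in the fit reported, was −0.02 with DESeq2 size factors and the Wald test, −0.01 with no filter, upper-quartile factors and the 10 libraries unblocked, −0.00249 with the replicate block, −0.00192 with WT 6 and WT 7 summed and −0.00161 with limma-voom. Leaving out 1 library each gave ranges of −0.11 to 0.02 for Egr2, −0.08 to 0.02 for Egr3, −0.16 to 0.05 for Klf2, −0.12 to 0.000407 for Klf10, −0.04 to 0.06 for Arc, −0.05 to 0.06 for Dusp5, −0.000259 to 0.12 for Tiparp, −0.11 to 0.01 for Bdnf and −0.09 to 0.03 for Nptx2.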
